A study of Mus musculus with 4 samples.

Results

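Hedgehog signalling was followed in the posterior part of mouse embryos that lack the histone demethylase Jmjd3, now named Kdm6b, and of wild-type embryos. The genes were the 10 of a list of Hedgehog and axial midline genes (Shh, Foxa1, Foxa2, Noto, Smo, Gli2, Gli3, Ptch1, Gli1 and Hhip), taken by every probe whose accession maps to them. Probes were found for 9 of the 10, and all 9 were among the 13584 genes tested of 18224 that could be named. No probe was matched to Noto, a homeobox gene of the node and notochord, which was not analysed here. The 9 genes were covered by 13 of the 41174 probes.

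Embryos of both genotypes came from intercrosses of Jmjd3+/- mice and were collected at E9.5, staged by time after mating and by somite number. The Jmjd3-/- group and the wild-type group each had 2 RNA samples, and total RNA of each was labelled with Cy3 and hybridised to 1 array. By genotype and by the replicate number in the labels they are called KO1 and KO9 (Jmjd3-/-) and WT3 and WT4 (wild-type). The allele is not described in the labels, nor is the number of embryos in a sample. Nothing there says that samples came from separate embryos, and the spread behind each p-value may be technical.

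In the Hedgehog pathway a secreted ligand binds the receptor Ptch1, which otherwise holds the membrane protein Smo inactive. Active Smo turns the Gli transcription factors from repressors into activators, and Ptch1, Gli1 and Hhip are themselves transcribed in response, which makes them standard readouts of the pathway. In the trunk, Shh is made by the notochord and floor plate, where Foxa2 acts upstream of it, and from there it patterns the ventral neural tube and the sclerotome. Shh is also made by gut endoderm and, in the limb bud, by the polarising region.

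The proximal promoters of the receptor gene Ptch1 and of Hhip are shown because these targets had the largest mean differences between the genotypes, in opposite directions. For Ptch1 the genotypes overlapped, and without KO1 its log2 difference was −0.083. They are the 250 bases before the annotated start, from RefSeq on GRCm38.p6, on the minus strand, with each CpG in capitals. Ptch1 (chr13:63565736-63565985) holds 41 CpG and Hhip (chr8:80058009-80058258) holds 28.
Ptch1: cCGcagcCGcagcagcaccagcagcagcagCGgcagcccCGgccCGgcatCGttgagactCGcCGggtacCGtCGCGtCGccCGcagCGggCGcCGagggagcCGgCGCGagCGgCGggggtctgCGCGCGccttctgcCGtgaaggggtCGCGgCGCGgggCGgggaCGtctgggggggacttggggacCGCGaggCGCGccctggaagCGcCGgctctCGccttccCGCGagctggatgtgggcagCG
Hhip: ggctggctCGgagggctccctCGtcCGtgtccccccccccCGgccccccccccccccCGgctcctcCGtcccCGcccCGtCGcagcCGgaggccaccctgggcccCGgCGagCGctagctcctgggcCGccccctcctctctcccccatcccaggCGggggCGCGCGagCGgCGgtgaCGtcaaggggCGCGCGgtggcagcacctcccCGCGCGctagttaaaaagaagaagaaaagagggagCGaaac

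Of the 10 listed genes, 8 had a promoter window in that table, 10 windows in all because Foxa2 has 3. A window runs from 250 bases before to 50 after the start, and the median over 32851 windows of all genes was 7 CpG, with quartiles of 3 and 20. Ptch1 had 47 CpG over its whole window, a number reached by 1.44% of windows, and Gli3 had 39 (4.45%). Hhip had 30, Gli2 28, Foxa1 26 and Smo 17, the windows of Foxa2 had 12, 13 and 23, and that of Noto had 6. The Gli consensus GACCACCCA was searched on both strands, and so was the CCACCCA that it contains. Neither was found in a window of these genes, against 0.253% and 9.30% of all windows, so these letters are not in these stretches.

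Between 24632 and 25949 probes, 59.8% to 63.0%, of each array stood well above background, and 0 spots reached saturation. Precision is limited by the number of arrays. The arrays of Jmjd3-/- were more than 2-fold apart at 431 of the tested genes and those of wild-type at 157, and KO9 was closer to each wild-type array, at 333 and 354 genes, than to KO1. The Hedgehog genes are therefore given by array. As a check of the tissue, all 13 listed tail bud genes, among them T and Cdx2, were well above background on each of the 4 arrays. Nkx2-1, a gene of forebrain, thyroid and lung, was above it on no array. The same held for Hoxd12, listed for the limb polarising region, so the absence of 1 gene says little about the tissue. The 1 probe of Kdm6b gave 25.7% of the wild-type signal in Jmjd3-/- (log2 difference −1.96, SE 0.12, n = 2 per genotype, limma adjusted p = 0.149). Where that probe lies relative to the deleted part is not given here, and it checks the labels only if it lies inside.

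The comparison asked whether the ligand source, the receptor side and the targets of Hedgehog signalling differ between Jmjd3-/- and wild-type. None of the 9 genes passed an adjusted p of 0.05 (limma, Benjamini-Hochberg over all genes), where 0.0368% of all tested genes did, 3 higher and 2 lower. At an unadjusted p under 0.05 there was 1 of the 9, Hhip, which was lower. That share of 11.1% is the same as the 11.1% of all tested genes, of which 5.15% were higher and 5.93% lower. Under 4 other settings that kept all arrays, 0 of the 9 had such a p. The median log2 difference of the 9, Jmjd3-/- minus wild-type, was 0.04 with 5 positive and 4 negative, beside −0.01 over all genes tested, of which 6366 were positive and 7218 negative. The arrays of the genotypes did not overlap for 1 gene that was higher, Gli2, and for 2 that were lower, Gli1 and Hhip; over all genes 23.0% were higher and 23.7% lower in this way.

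**Figure D1:**
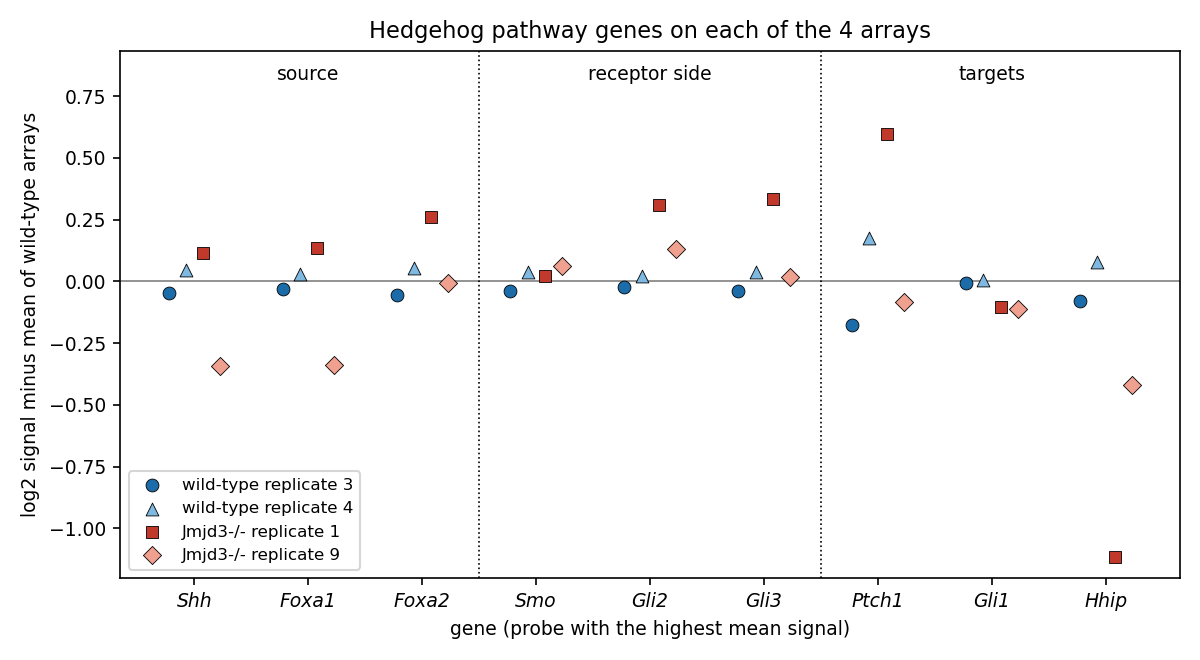
Log2 signal of each of the 9 genes on each array relative to the wild-type mean, ordered by role; KO1 and KO9 are Jmjd3-/- replicates 1 and 9. Shh and Foxa1 sit highest in KO1 and lowest in KO9, at −0.34 for both, and Hhip is lowest in KO1, at −1.11.

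Shh, the ligand gene on chromosome 5, was read by probe A_52_P49014, which is spotted 10 times on each array. Levels here are log2 signals less the 75th percentile of the array. The level was −0.59 and −1.05 in KO1 and KO9 and −0.75 and −0.66 in WT3 and WT4. Both wild-type values lay between those of the Jmjd3-/- arrays, so the genotypes overlapped. The means were −0.82 ± 0.32 and −0.70 ± 0.07 (SD, n = 2 each), a log2 difference of −0.12 (SE 0.18, limma adjusted p = 0.844). The 95% interval of that difference ran from 0.644-fold to 1.32-fold, and changes within these limits are not excluded by these arrays. The interval is no limit of detection. Without KO9 the difference was 0.11, and without KO1 it was −0.34.

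The 10 spots show how finely Shh was measured on each array. Their SD was between 0.07 and 0.11 on the 4 arrays. On KO9 the brightest spot stood at −0.93, under the dimmest spot on each other array, the lowest of which was −0.86 on WT3. The distance of 0.46 between the Jmjd3-/- arrays was thus larger than the spread of spots, and it was larger than the 0.09 between the wild-type arrays. Spots of 1 array share its RNA and are not replicates of a genotype.

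Foxa1 and Foxa2 encode forkhead factors of endoderm and the axial midline. Foxa1, on chromosome 12 with 1 probe (A_51_P417643), stood at −1.76 and −2.23 in KO1 and KO9 and at −1.92 and −1.86 in WT3 and WT4. The genotypes overlapped in the same order as for Shh, with a log2 difference of −0.10 (SE 0.19, adjusted p = 0.870). Without KO9 it was 0.14.

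Foxa2, on chromosome 2, was read by 10 spots of probe A_51_P222773. Its level was 2.08 and 1.81 in KO1 and KO9 and 1.76 and 1.88 in WT3 and WT4. KO1 stood above the others, and KO9 lay between the wild-type arrays. The log2 difference was 0.13 (SE 0.13, adjusted p = 0.734), and without KO1 it was −0.0063. The dimmest spot on KO1, at 1.98, was brighter than the brightest on any other array, at 1.94 on WT4, and the SD of spots was between 0.03 and 0.04. The genes of the ligand source therefore differed more between the Jmjd3-/- samples than between the genotypes.

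**Figure D2:**
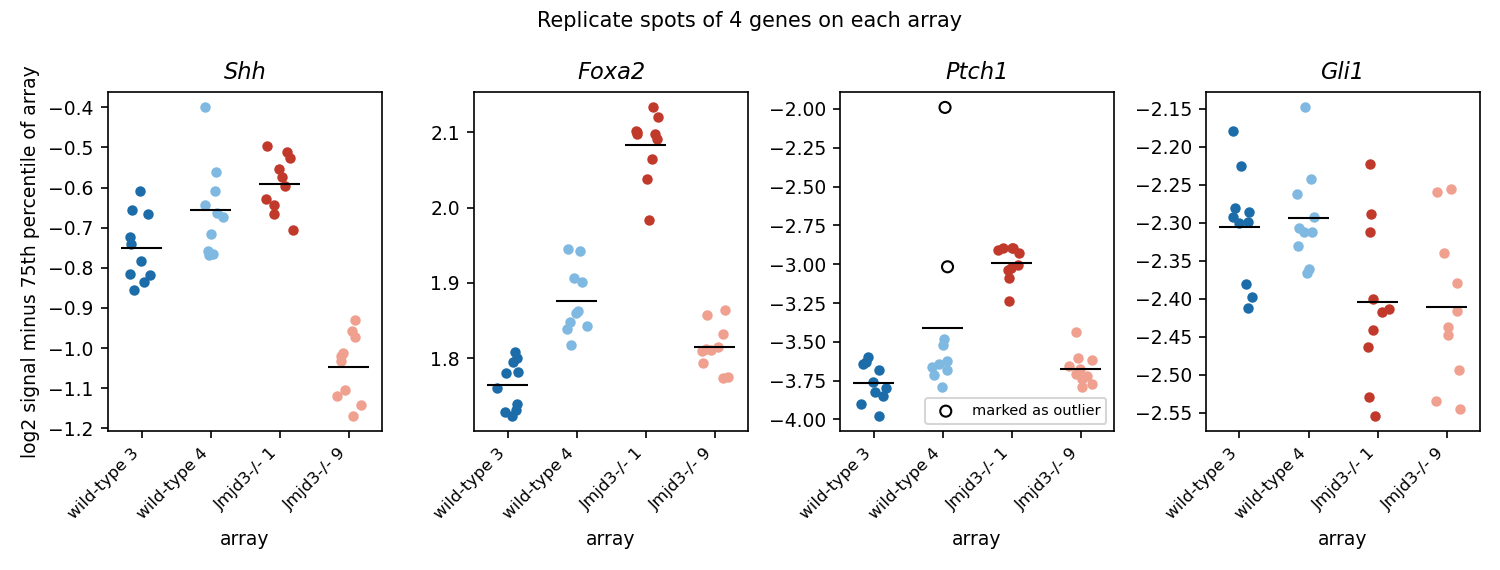
Each point is 1 of 10 replicate spots of Shh, Foxa2, Ptch1 or Gli1 on an array, as log2 signal less the 75th percentile of the array; lines are the means of all 10, and open circles are spots marked as outliers by the scanner software. For Shh KO9 lies below the other arrays, and for Foxa2 and, apart from the open circles, Ptch1 KO1 lies above them.

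On the receptor side, Smo, the membrane protein that Ptch1 restrains, had 2 probes on chromosome 6. The brighter (A_51_P258766) stood at 5.92 and 5.96 in KO1 and KO9 and at 5.86 and 5.94 in WT3 and WT4. The genotypes overlapped, with a log2 difference of 0.04 (SE 0.08, adjusted p = 0.865). The 95% interval of this difference, −0.18 to 0.26, was narrow beside those of the other genes apart from Gli1. The other probe (A_52_P444864) differed by 0.08. It stood much lower, at −0.19 and −0.20 in KO1 and KO9 and at −0.33 and −0.22 in WT3 and WT4. Why the probes differ in level was not tested.

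Gli2 and Gli3 encode the Gli factors through which the signal first acts, Gli2 mainly as activator and Gli3 mainly as repressor. The brighter probe of Gli2 (A_52_P357829, chromosome 1) stood at 0.00051 and −0.17 in KO1 and KO9, both above −0.33 and −0.29 in WT3 and WT4. The log2 difference was 0.22 (SE 0.10, adjusted p = 0.510). The dimmer probe of Gli2 (A_52_P564620) went the other way, with −4.28 and −5.26 against −4.98 and −4.04. It was not well above background on KO9 and differed by −0.26 (SE 0.50), and with the mean of both probes the difference of Gli2 was −0.019. The direction of Gli2 is thus not settled.

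The brighter probe of Gli3 (A_51_P171288, chromosome 13) stood at 2.79 and 2.48 in KO1 and KO9 and at 2.42 and 2.50 in WT3 and WT4. KO9 lay between the wild-type values, and the log2 difference was 0.18 (SE 0.14, adjusted p = 0.667). Without KO1 it was 0.019 and without KO9 it was 0.33. The other probe of Gli3 (A_51_P410070) was not well above background, by most of its 10 spots, on any array.

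Among the targets, Gli1, a Gli activator that is itself induced by the signal, was the most even. Its 10 spots (A_51_P518548, chromosome 10) averaged −2.40 and −2.41 in KO1 and KO9 and −2.31 and −2.29 in WT3 and WT4. The genotypes did not overlap, and the SD within a genotype was 0.0047 for Jmjd3-/- and 0.0082 for wild-type, yet the distance was small. The log2 difference of −0.11 (SE 0.07, adjusted p = 0.626) equals 92.8% of wild-type, with a 95% interval of 0.807-fold to 1.07-fold. The SD of single spots on an array was between 0.06 and 0.10, while each level is a mean of 10 spots.

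Ptch1, the receptor and feedback inhibitor on chromosome 13, was read by 10 spots of probe A_51_P127435. The level was −2.99 and −3.67 in KO1 and KO9 and −3.77 and −3.41 in WT3 and WT4. KO1 stood above both wild-type arrays and KO9 between them, with a log2 difference of 0.26 (SE 0.29, adjusted p = 0.768). Without KO1 it was −0.083 and without KO9 it was 0.60. On WT4, 2 of the 10 spots were marked as outliers, 1 of them with a processed signal of 158. The other 8 averaged −3.64 with a brightest spot of −3.48, and leaving out marked spots gave a difference of 0.37 (SE 0.26, adjusted p = 0.645). All 10 spots on KO1 were at or above −3.23.

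Hhip, which binds and sequesters the ligand at the cell surface, had the largest difference of the 9. The brighter probe (A_52_P249826, chromosome 8) stood at −3.16 and −2.47 in KO1 and KO9 and at −2.13 and −1.97 in WT3 and WT4. Both Jmjd3-/- arrays were below both wild-type arrays, and the mean of Jmjd3-/- was 58.7% of wild-type. The log2 difference was −0.77 (SE 0.27, unadjusted p = 0.0488, limma adjusted p = 0.448), which did not pass, and it ranged from −1.14 to −0.42 over 13 other settings. Of all genes tested, 95% differed by less in size. The gap of 0.69 between the Jmjd3-/- arrays was nearly as large as the difference between the genotypes.

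The dimmer probe of Hhip (A_51_P416822) was well above background on WT4 and on no other array. Its level was −7.34 and −5.98 in KO1 and KO9 and −5.60 and −4.72 in WT3 and WT4. It was not tested, and no fold is given. In such whole-tissue RNA, fewer cells of a type and less RNA per cell cannot be told apart.

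**Figure D3:**
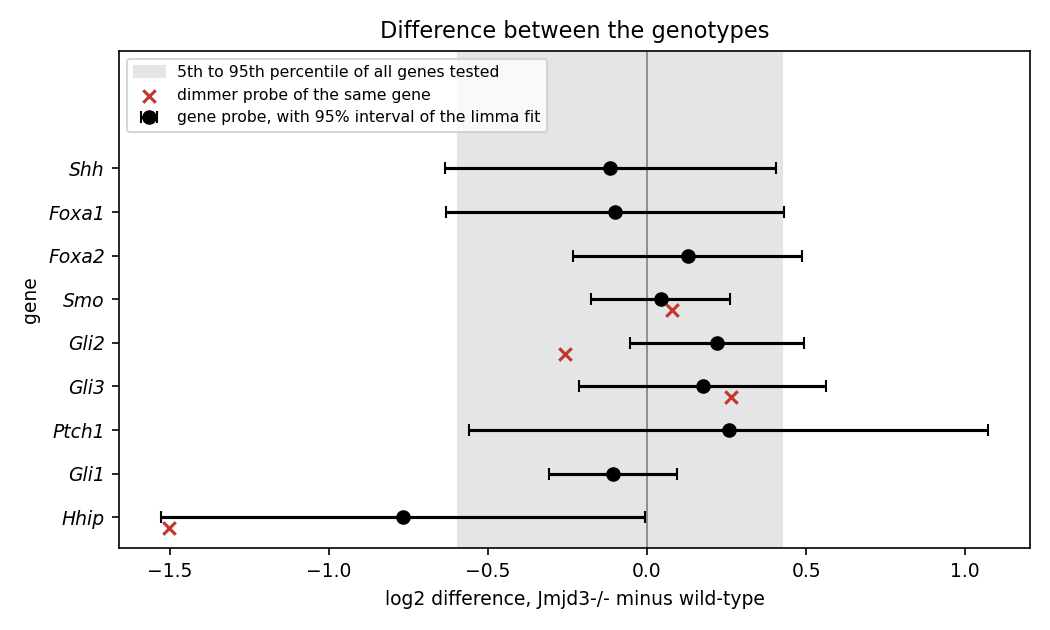
Log2 difference between the genotypes for each gene with its 95% interval (points and bars), the dimmer probes of the same genes (crosses), and the 5th to 95th percentile of all tested genes (grey, −0.59 to 0.42). Hhip lies below the grey band, and the cross of Gli2 lies on the other side of 0 from its point; the dimmer probes of Gli3 and Hhip were mostly not above background.

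Ligand source and targets were then set side by side, as a description with no test. The median log2 difference was −0.10 over Shh, Foxa1 and Foxa2, −0.11 over Ptch1, Gli1 and Hhip and 0.18 over Smo, Gli2 and Gli3. Source minus targets gave 0.0075 from the genotype means, but 0.24 in KO1 and −0.23 in KO9, and 0.03 and −0.03 in WT3 and WT4. In KO1 the source median was 0.14 and the target median −0.10, and in KO9 they were −0.34 and −0.11. With 3 genes to a group, each median is the value of 1 gene. In KO1, in KO9 and in the genotype means this was Foxa1 for the source and Gli1 for the targets. Gli1 was thus much alike in both Jmjd3-/- samples while Foxa1 was not, and this does not describe the groups as a whole. The targets Ptch1 and Hhip lay apart, by 0.60 and −1.11 in KO1.

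The genes most like Shh and Ptch1 were found by the distance between levels over the 4 arrays, each centred on its mean. Of 13251 other named genes, Foxa1 was the nearest to Shh, at a distance of 0.029 (log2), followed by Cep68 and Mfsd2a, at 0.034 and 0.036. With 4 arrays such likeness is common, and 355 genes lay within 0.2. The nearest to Ptch1 were Fbxo44, Ash1l and G6pc, at 0.035, 0.050 and 0.062, and 39 genes lay within 0.2.

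Among the other ligands, receptors and signal transducers no gene passed the threshold. Among ligands and the proteins that release them, 7 of 8 on the array were tested, with 4 positive and 3 negative, a median of 0.11 and 0 at an unadjusted p under 0.05. The ligand genes Ihh and Dhh differed by 0.23 (SE 0.22) and −0.54 (SE 0.24). Disp1 and Scube1, whose products release the ligand from the cell, differed by 0.14 and 0.11, with other probes down to −0.18 and −0.31.

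Of receptors and co-receptors 9 of 10 were tested, with a median of 0.04, 6 positive, and 0 called. At an unadjusted p under 0.05 there were 2, Hhip and Lrp2, which is 22.2% of the list beside 11.1% of all tested genes. Lrp2, an endocytic receptor that binds Shh, stood at 0.57 and −0.03 in KO1 and KO9 and at −0.77 and −0.94 in WT3 and WT4. The genotypes did not overlap, and the log2 difference of 1.13 (SE 0.24) had an adjusted p of 0.335. The co-receptor gene Gas1, itself held down by Hedgehog signalling, differed by −0.37 (SE 0.20) and the glypican gene Gpc3 by 0.21 (SE 0.08).

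All 20 signal transducers were tested, and 12 were positive and 8 negative, with a median of 0.02 and 0 at an unadjusted p under 0.05. Gpr161 and Sufu, both inhibitors of the pathway, differed by 0.28 (SE 0.10) and −0.15 (SE 0.08), and the other probe of Sufu by 0.04. The kinesin gene Kif7 differed by 0.17 (SE 0.08), and Spop, an adaptor for the breakdown of Gli proteins, by −0.21 (SE 0.13).

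Notochord and floor plate markers showed no common direction. Of 17 notochord and node genes 16 were tested, with 7 positive and 9 negative, a median of −0.06 and 0 called. T (Brachyury), a T-box gene of notochord and tail bud, differed by 1.09 (SE 0.41, adjusted p = 0.463), and the BMP antagonist gene Nog by 0.38 (SE 0.09). Sox9, a gene of cartilage precursors and the notochord sheath, differed by −0.57 (SE 0.25) and Bicc1 by −0.38 (SE 0.10). Of 13 floor plate genes 11 were tested, with 6 positive, a median of 0.04 and 0 called. Ntn1, the axon guidance gene Netrin-1, stood at −1.14 and −1.08 in KO1 and KO9 against −1.42 and −1.47, a difference of 0.33 (SE 0.08, adjusted p = 0.339). Sulf1, which trims heparan sulfate and affects Shh release, differed by 0.73 (SE 0.20), Spon1 by −0.52 (SE 0.29) and Lmx1b by −0.36 (SE 0.18). Lmx1b was well above background on both wild-type arrays but on only 1 Jmjd3-/- array.

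Ventral neural tube genes, which depend on Shh from the floor plate and notochord, had the lowest median of the lists, −1.03 over 7 tested, with 5 of the 7 negative and 0 called. For those 5 the genotypes did not overlap, where 23.7% of all genes were lower in this way. Nkx2-2, of the progenitors next to the floor plate, stood at −4.95 and −4.36 in KO1 and KO9 against −3.78 and −3.42, a difference of −1.06 (SE 0.26, adjusted p = 0.358). Olig2, of the motor neuron progenitors, stood at −2.30 and −0.56 against −0.46 and −0.35, and Nkx6-2 at −1.90 and 0.18 against 0.46 and 0.64. Their adjusted p-values were 0.610 and 0.568, and that of Olig1, with a difference of −1.15 (SE 0.56), was 0.538. Olig1 was well above background on both wild-type arrays but on only 1 Jmjd3-/- array. It thus entered the test, and the median and counts of this list, through wild-type alone. The median of the list was −1.35 in KO1 and −0.16 in KO9, beside 0.11 between the wild-type arrays. All 5 negative genes lay below both wild-type arrays in KO9 too, but Nkx6-1 only barely. It stood at 1.078 in KO9 against 1.081 in WT4 and 1.153 in WT3.

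Neural tube genes that Hedgehog signalling holds down differed among themselves. Over 10 tested genes, 7 were negative and 3 positive, with a median of −0.24 that was −0.55 in KO1 and 0.09 in KO9, and 0 were called. Pax3, Irx3, Msx1 and Gsx1 stood above the wild-type mean in KO1, and the others below it. Dbx1, of intermediate progenitors, stood at −2.44 and 0.84 in KO1 and KO9 against 0.87 and 1.01 (adjusted p = 0.638). The dorsal gene Pax7 stood at −4.67 and −4.34 against −3.78 and −3.71, a difference of −0.76 (SE 0.14, adjusted p = 0.329), Irx5 differed by −0.71 (SE 0.23), and Gsx1 by 0.08 (SE 0.08). In KO1, where both neural tube medians were negative, Shh, Foxa2 and Ptch1 were at their highest of the 4 arrays, Hhip was at its lowest and Gli1 was below both wild-type arrays. These are values of 1 array, and a relation between them was not tested.

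**Figure D4:**
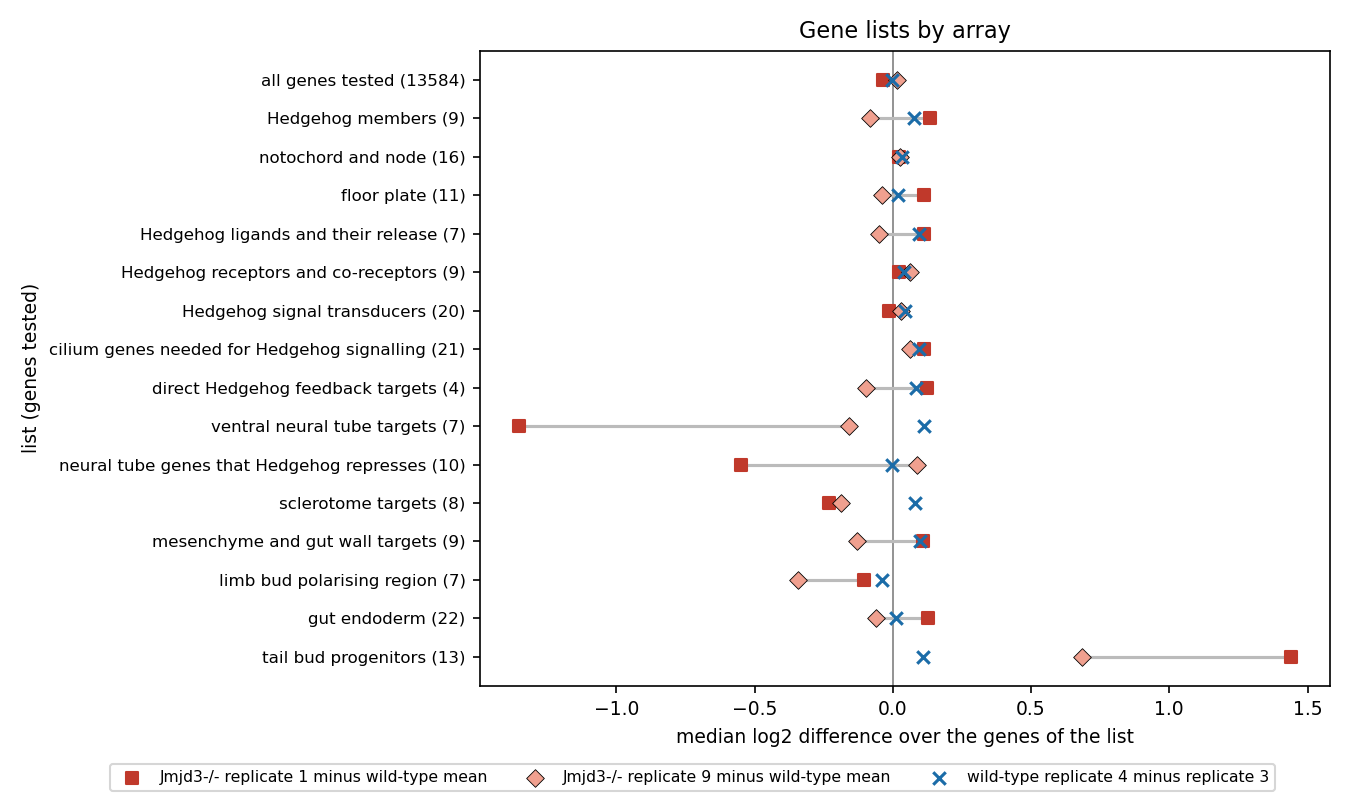
Median log2 difference over each gene list for KO1 and KO9 against the wild-type mean, and between the wild-type arrays (crosses), with the number of genes tested. Both neural tube lists lie far to the left in KO1, at −1.35 and −0.55, the tail bud list lies to the right in both, and the lists of pathway components stay near 0.

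Outside the neural tube, 8 sclerotome genes, which make the vertebrae under the control of Shh, had a median of −0.24, with 0 called. At an unadjusted p under 0.05, 3 were higher and 2 lower, 62.5% of the list beside 11.1% of all tested genes. Pax9 stood at −3.38 and −3.00 in KO1 and KO9 against −2.43 and −2.37, a difference of −0.79 (SE 0.15, adjusted p = 0.330). Foxc1 differed by 0.40 (SE 0.11) and Meox2 by −0.41 (SE 0.09).

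Genes listed as mesenchyme and gut wall targets had a median of −0.04 over 9 tested genes. Barx1, a homeobox gene of stomach mesenchyme and branchial arches, was the 1 gene of all these lists that passed. It fell from 0.16 and 0.35 in WT3 and WT4 to −2.49 and −2.50 in KO1 and KO9, a log2 difference of −2.75 (SE 0.10, limma adjusted p = 0.0409). Whether Barx1 responds to Hedgehog signalling in this tissue was not tested. Without KO1, WT3 or WT4, and under 4 other settings, 0 genes of these lists passed, and without KO9 there were 8. Foxf1, a direct target in gut mesenchyme, differed by −0.28 (SE 0.13), Tcf21 by −0.47 (SE 0.15) and Wnt5a by 0.36 (SE 0.19).

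The other tissues that make Shh did not move as 1 group. Of 25 gut endoderm genes 22 were tested, with 10 positive, a median of −0.0053 and 0 called. Cdx2, which is also a tail bud gene, differed by 1.45 (SE 0.23), Spink1 by 0.85 (SE 0.14), the adhesion gene Cdh1 by 0.32 (SE 0.08) and Gata6 by −0.53 (SE 0.13). Of the genes listed for the limb polarising region 7 were tested, with 6 negative, a median of −0.18 and 0 called. Hoxd11 differed by −0.72 (SE 0.12), Hoxd13 by −0.69 (SE 0.15), Grem1 by −0.25 (SE 0.19) and Hand2 by −0.18 (SE 0.14). Which tissue of the sample gave the signal of Hoxd11 and Hoxd13 was not tested. The 13 tail bud genes were all positive, with a median of 1.09 that was 1.44 in KO1 and 0.68 in KO9; Cdx1, Wnt3a and Fgf17 differed by 0.79, 1.42 and 1.33, and 0 passed. At an unadjusted p under 0.05, 11 of the 13 were higher, beside 5.15% of all tested genes. The part of these tissues in the values of Shh, its targets and the neural tube genes was not tested.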

How the data were processed

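Spot intensity was deposited as Agilent Feature Extraction 10.7.3.1 files from a 1-colour scan, per the submitters' processing notes. Background and spatial trends were removed from the processed intensity and arrays were not scaled to each other, per the file headers. A deposited table of log2 values, with no stated scale, was matched by the log of the processed signal, scaled to the 75th percentile and with the wild-type mean taken off (r of 0.995 to 0.997 across probes, 99.9% of probes within 0.01); the medians of its columns were −0.02 (KO1), 0.05 (KO9), 0.02 (WT3) and −0.02 (WT4). Scale, centring and direction were thus found from the values. Control spots were left out, log2 signals of the spots of a probe averaged, and the 75th percentile of each array subtracted. Accessions were named through the RefSeq table of GRCm38.p6, which named 26690 probes by accession and 28 by synonym and left 14456 unnamed; the array design names another build, so no coordinates of probes are given. The brightest probe stood for a gene, and genes entered the test where it stood well above background in both samples of 1 genotype or more. The comparison used limma 3.58.1 (R 4.3.3, lmFit and eBayes without covariates), tested on simulated data, with Benjamini-Hochberg adjustment over 13584 genes and a threshold of 0.05. All arrays lay on 1 slide, with Jmjd3-/- at both ends, so position and genotype cannot be told apart. The arrays of a genotype held 0 genes with equal values.

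The Hedgehog genes, the gene lists and the rules were chosen with earlier results of these data known. Named genes are the 10 listed, Kdm6b, up to 4 other genes of each list by p, and the 3 genes nearest to Shh and to Ptch1; a few that the rule takes are not reported here. Of 51 genes named from lists, 13 had several tested probes, and in 3 these differed in sign. Alternatives changed the background correction (normexp, offset 50, on the median spot signal, since the files hold no mean signal), the scaling, the filter, the rule for several probes, outlier spots, the variance prior and the arrays used, and took the deposited log2 table.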

Additional observations from a re-analysis of the deposited data

How the results depend on the processing

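Of the 9 Hedgehog genes 0 passed under any of the 14 other settings, with each probe tested apart, a setting chosen after seeing the data, among them. Gli1, Gli3, Hhip and Smo kept their direction under all 13 planned settings, though Gli3 ranged from 0.019 (without KO1) to 0.33 (without KO9) and Smo from 0.0058 (without WT3) to 0.081 (without WT4). The direction reversed for Shh and Foxa1 without KO9 (0.11 and 0.14), for Foxa2 and Ptch1 without KO1 (−0.0063 and −0.083; 0.26 and 0.60 without KO9), and for Gli2 with the mean of its probes (−0.019); the cause was not tested. Leaving out 1 array at a time, the median of the 9 genes ranged from −0.083 to 0.14, that of the source genes from −0.34 to 0.14, that of the targets from −0.11 to −0.10, and source minus targets from −0.23 to 0.24. The target median was each time the value of Gli1 alone. Over all genes, 3 were called higher and 2 lower. Both counts were 1 with normexp and 0 with quantile normalization, with no filter, and with one that asked for signal on all 4 arrays. Calls higher were 1 with a trend and robust prior. Calls lower were 4 with scaling to the median and without marked spots, and 1 with the probes of a gene averaged. Leaving out 1 array, calls ranged from 0 to 47 higher and from 0 to 120 lower, the most without KO9. In the pathway lists 1 gene was called, 0 with quantile normalization, with either other filter and with probes averaged, and 0 to 8 without 1 array. No paired analysis was possible because the genotypes share no replicate number. Of the 9 genes, those at an unadjusted p under 0.05 (1 as reported) were 0 with normexp, quantile normalization, no filter or probes averaged. The number of arrays limits all calls.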

Other observations

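Genes of the primary cilium, the organelle in which Smo and the Gli proteins meet, were set beside the pathway genes. Of 23 listed 21 were tested, with 13 positive and 8 negative, a median log2 difference of 0.03 and 0 called, and 3 had an unadjusted p under 0.05, beside 11.1% of all genes. The transport gene Ift57 stood at 1.23 and 1.29 in KO1 and KO9 against 1.82 and 2.23 in WT3 and WT4, a difference of −0.76 (SE 0.17, limma adjusted p = 0.335). Ift140, of the retrograde transport complex, differed by 0.28 (SE 0.07), Ift172 by 0.22 (SE 0.09) and the transition zone gene B9d1 by 0.44 (SE 0.14).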
